A study of Mus musculus with 27 samples.

Results

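Metabotropic glutamate receptors are G protein-coupled receptors for glutamate, and 6 of their genes (Grm2, Grm3, Grm4, Grm5, Grm7 and Grm8) are described here in mouse primary cortical cells. They were taken by symbol from a table of 59489 gene entries. Grm6 is no member and is given for orientation. The set was chosen with its response in nuclei in view. Grm7 was selected on its nuclear FPKM, which was higher in bicuculline-treated cells, so that contrast is given as a description without a test. Every member had an FPKM (mapped fragments scaled to transcript length in kilobases and to the library's total) of at least 1 in 27 of 27 libraries, so all 6 passed the filter on low values.

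The libraries were made from polyadenylated RNA of wild type cells taken from mouse brain at embryonic day 16.5 and cultured for 14 days, with 3 libraries in each of 9 groups. In 9 libraries transcription was blocked with DRB, an inhibitor of elongation (50 µM, 2 h). Of these, 3 came from unstimulated cells, 3 from cells with bicuculline (20 µM, 1 h), an antagonist of GABA-A receptors that raises network firing, and 3 from cells with the TrkB ligand BDNF (50 ng/mL, 1 h). In 18 libraries initiation was blocked with triptolide (1 µM, 3 h), with or without the same bicuculline treatment, and RNA came from whole cells, nuclei or cytosol. Every group carried an inhibitor, so no cells with ongoing transcription were compared, and the study's title places its question in the remodelling of neuronal RNA by cues through intron retention.

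Group I receptors, Grm5 among them, couple to Gq and phospholipase C, are mostly postsynaptic and are tethered by Homer proteins. Group II (Grm2, Grm3) and group III (Grm4, Grm7, Grm8, with Grm6) couple to Gi/o, lower cyclic AMP and, at many presynaptic terminals, reduce transmitter release. Grm7 sits in the active zone of terminals, where its low affinity for glutamate makes it respond to strong release, and Grm3 and Grm5 are also known from astrocytes.

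The genes lie on 5 chromosomes and most are very long. On mm10 the table places Grm2 at chr9:106643095-106656109, minus strand, a span of 13.0 kb. Grm3 is at chr5:9485236-9725352, minus strand, Grm4 at chr17:27422390-27513341, minus strand, and Grm5 at chr7:87584168-88135063, plus strand. Grm7, at chr6:110364049-111567230 on the plus strand, spans 1203 kb in the table, beginning upstream of the start in GENCODE M21 (110645581). Grm8 is on the same chromosome at chr6:27275121-28135146, minus strand, over 860.0 kb. Among 11836 matched genes, Grm5, Grm7 and Grm8 were at percentiles 98.6, 99.8 and 99.4 of span, and Grm2 at 29.6.

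Promoter windows of RefSeq (GRCm38.p6, 250 bases before to 50 after a gene's start) matched 4 of the 6 genes and not Grm4 or Grm5. These genes have 7 windows, 3 for Grm8 and 2 for Grm7, and the most upstream one of each gene is shown. They are given for Grm2 and Grm7, whose nuclear groups with and without bicuculline did not overlap, and for Grm3 and Grm8, whose nuclear groups overlapped. Initiation was blocked with triptolide in those cells, and a link between motifs and nuclear levels was not tested. Capitals mark a match on either strand. The GC box was searched as GGGCGG. The AP-1 motif was searched as TGANTCA. The cyclic AMP response element was searched whole as TGACGTCA. Its short form was searched as TGACG. The TATA box was searched as TATAAA. The windows are chr6:110645262-110645561 (plus) for Grm7, chr9:106656060-106656359 (minus) for Grm2, chr5:9725303-9725602 (minus) for Grm3 and chr6:28135097-28135396 (minus) for Grm8.
Grm7: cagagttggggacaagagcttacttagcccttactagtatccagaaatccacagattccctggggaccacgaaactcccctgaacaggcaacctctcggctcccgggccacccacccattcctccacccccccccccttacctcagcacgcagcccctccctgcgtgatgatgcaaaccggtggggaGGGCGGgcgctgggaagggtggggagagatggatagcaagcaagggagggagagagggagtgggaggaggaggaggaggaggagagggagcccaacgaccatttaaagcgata
Grm2: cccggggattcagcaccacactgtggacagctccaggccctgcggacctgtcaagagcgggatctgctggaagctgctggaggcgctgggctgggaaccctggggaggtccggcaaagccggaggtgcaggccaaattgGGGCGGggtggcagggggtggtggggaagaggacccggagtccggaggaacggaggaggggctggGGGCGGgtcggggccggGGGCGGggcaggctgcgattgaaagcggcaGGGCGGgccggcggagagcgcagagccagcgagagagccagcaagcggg
Grm3: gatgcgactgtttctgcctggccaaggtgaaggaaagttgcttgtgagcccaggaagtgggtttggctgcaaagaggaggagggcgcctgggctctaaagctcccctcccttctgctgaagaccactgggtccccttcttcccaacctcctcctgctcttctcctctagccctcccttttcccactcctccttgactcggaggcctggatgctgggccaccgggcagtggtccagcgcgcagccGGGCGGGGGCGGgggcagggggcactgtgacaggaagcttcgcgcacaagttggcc
Grm8: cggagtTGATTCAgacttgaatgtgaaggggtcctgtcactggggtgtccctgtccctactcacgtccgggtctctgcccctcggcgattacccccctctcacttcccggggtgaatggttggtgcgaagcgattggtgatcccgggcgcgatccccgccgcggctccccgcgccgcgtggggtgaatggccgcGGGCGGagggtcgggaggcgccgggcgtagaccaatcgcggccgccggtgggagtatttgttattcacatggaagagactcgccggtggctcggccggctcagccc
In these windows the GC box was matched 4 times in Grm2, 2 times in Grm3 and 1 time each in Grm7 and Grm8, and 35.7% of 32851 promoter windows hold it. The AP-1 letters were matched 1 time, in Grm8, against 7.81% of all windows. The 4 windows shown had no match to the whole cyclic AMP element (1.79% of windows), to its short form (20.8%) or to the TATA box (13.6%). GC content was 72.0% in Grm2, 67.0% in Grm8, 63.7% in Grm3 and 61.0% in Grm7, above the median of 52.7% over all windows. Of the 3 windows not printed, a Grm8 window matched the short form of the cyclic AMP element and another had a GC content of 43.3%.

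The 6 receptors covered a wide range of levels, and their order was the same in both experiments. Grm5, the group I receptor, was the most abundant, with a mean of 47.9 FPKM over the 9 DRB libraries and 50.1 FPKM over the 18 triptolide libraries, at percentiles 86.5 and 89.7 of the genes tested. Grm7 came next (21.1 and 27.4 FPKM), then Grm3 (9.96 and 12.5 FPKM), Grm4 (8.14 and 8.26 FPKM), Grm2 (3.28 and 4.98 FPKM) and Grm8 (1.74 and 1.78 FPKM). FPKM is scaled to transcript length, so these levels can be set side by side. Grm3 and Grm4 overlapped under DRB, at 6.55 to 15.7 FPKM and 7.50 to 8.94 FPKM, and their order there was within their spread. Grm6, which is no member and is known from retinal bipolar cells, stayed between 0 and 0.0102 FPKM.

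**Figure D1:**
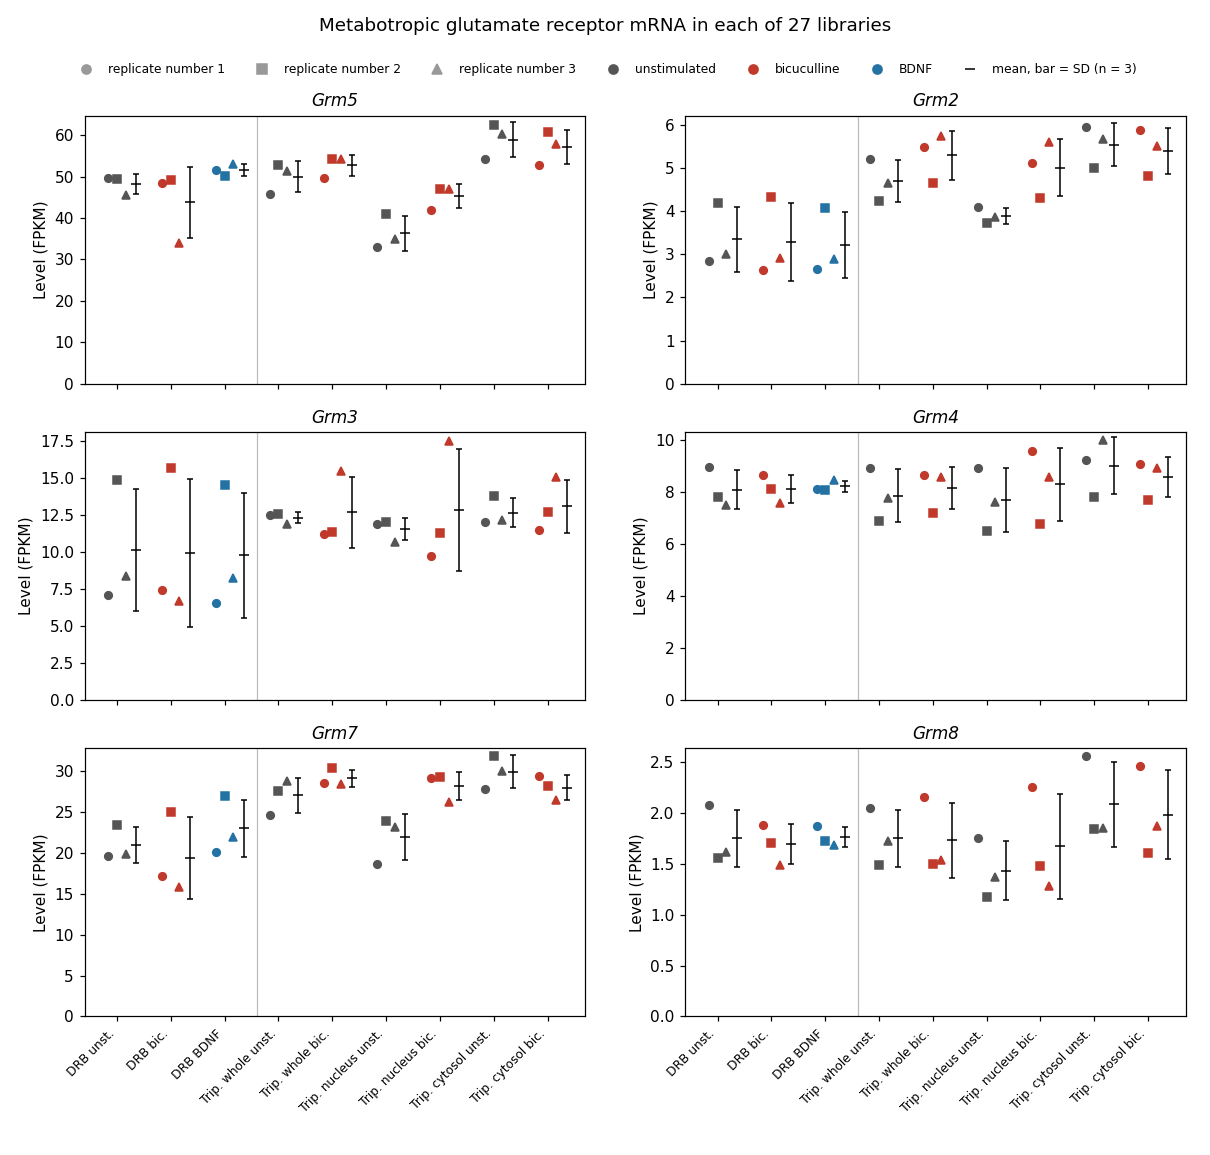
Level of each receptor mRNA (FPKM, linear axis from 0) in the 27 libraries, by group, with marker shape for replicate number, colour for stimulus and bars for mean and SD of 3 libraries. Grm5 is lowest in unstimulated nuclei (32.9 to 41.0 FPKM), and Grm3 under DRB is split by replicate number, with number 2 at 14.6 to 15.7 FPKM.

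The cells were checked against marker genes, and the cultures held neurons and glia. The summed level of 6 excitatory neuron markers was 509 to 890 FPKM over the libraries, of 5 inhibitory markers 186 to 580 FPKM and of 6 astrocyte markers 453 to 682 FPKM, while microglial (6 genes, 2.09 to 6.34 FPKM) and vascular markers (5 genes, 1.16 to 3.01 FPKM) were low. Oligodendrocyte lineage markers (6 genes) summed to 25.2 to 152 FPKM and progenitor markers (5 genes) to 11.6 to 49.0 FPKM. Cldn5, a marker of endothelium, was listed at 0 in 26 libraries and the microglial gene Tmem119 in 8. All other genes of these vascular and microglial lists were above 0 in every library. Among them, the endothelial gene Pecam1 was at 0.241 FPKM or more and the microglial gene Aif1 at 0.856 FPKM or more. In whole-culture RNA, fewer cells of a type and less RNA per cell cannot be told apart. The nuclear noncoding RNA Meg3 was at 768 to 826 FPKM in unstimulated nuclei and 76.6 to 83.3 FPKM in cytosol, which checks the fraction labels. Mitochondrially encoded RNA made up 9.59 to 12.5% of FPKM in nuclei and 8.90 to 12.3% in cytosol, so the nuclear libraries also held RNA from outside the nucleus. Depth, estimated from the steps between low values, was 83597000 to 148417500 fragments for the DRB set, and for the triptolide set it was 67647750 to 89523250.

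Under DRB, levels differed more between replicate numbers than between stimuli for 5 of 6 members, all but Grm5. Libraries with the same number deviated together across the genes tested (r of 0.463 to 0.902 over 9 pairs under DRB, 0.256 to 0.692 over 45 pairs under triptolide). For Grm3 under DRB, numbers 1 to 3 gave 7.13, 14.9 and 8.42 FPKM unstimulated, 7.47, 15.7 and 6.69 FPKM with bicuculline, and 6.55, 14.6 and 8.27 FPKM with BDNF. Number 2 was the highest in each of the 3 groups and did not overlap the others. Grm2, the other group II receptor, was also highest in number 2 of each group, with number 2 at 4.09 to 4.32 FPKM and the other libraries at 2.63 to 3.002 FPKM. Of the variance over the DRB libraries, 98.4% for Grm2 and 96.0% for Grm3 lay between numbers, 75.3% for Grm8, 66.1% for Grm7, 45.2% for Grm4 and 25.8% for Grm5.

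Under triptolide the split differed from gene to gene. Between the 6 groups lay 87.1% of the variance of Grm5, 72.4% of that of Grm7 and 66.7% of that of Grm2. For the group III receptors Grm4 and Grm8 these shares were 19.7 and 32.2%, and the shares between numbers were 69.6 and 61.2%. Number 1 was the highest in 6 of 6 groups for Grm8 and in 5 of 6 for Grm4. Grm3 had 66.1% of its variance in neither, and its highest value anywhere, 17.5 FPKM, was in the nuclei of bicuculline-treated cells of number 3.

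Under DRB neither stimulus changed a receptor past the test. The test was limma on log2(FPKM + 0.5) with Benjamini-Hochberg adjustment over all genes tested and a threshold of 0.05, and fold changes below are on that scale, which understates changes of low genes. Nothing in the labels says that the replicates are separate cultures, so the p-values measure the spread between libraries. With bicuculline 0 of 6 members were called by limma (0.308% of 13321 genes were called), 0 at an unadjusted p under 0.05 and 0 with replicate number as a block. The log2 differences ran from -0.16 to 0.01, with a member median of -0.05 against 0.00 over all genes.

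Grm5 had 49.6, 49.5 and 45.5 FPKM in the unstimulated DRB libraries and 48.5, 49.1 and 33.9 FPKM with bicuculline. The low value of number 3 set the group's mean of 43.8 ± 8.59 FPKM (SD, n = 3), and the groups overlapped. Grm7 was at 19.6, 23.5 and 19.8 FPKM unstimulated and 17.1, 25.1 and 15.9 FPKM with bicuculline. Its number 2 was higher with bicuculline while the others were lower, and its log2 difference of -0.14 had a 95% interval of -0.53 to 0.26. In the fit without the block, intervals were narrowest for Grm4 (-0.18 to 0.19) and widest for Grm3 (-0.96 to 0.84). They include the spread between replicate numbers, which held 96.0% of Grm3's variance under DRB. The intervals are not a limit of detection, because a call also needed adjustment over all genes tested, so changes beyond them could be missed too. They also do not bound what a paired fit detects.

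BDNF under DRB left 0 of 6 members called by limma (0.638% of genes were called), with 0 at an unadjusted p under 0.05 and 0 with the block. Grm5 was at 51.6, 50.2 and 53.0 FPKM with BDNF, above each unstimulated and each bicuculline library. It was the 1 member of 6 whose groups did not overlap in this direction (6.85% of genes against unstimulated cells). Its mean was 51.6 ± 1.44 FPKM with BDNF and 48.2 ± 2.34 FPKM without, a log2 difference of 0.10 with an interval of -0.19 to 0.39. Grm7 had 20.2, 26.9 and 22.0 FPKM with BDNF, higher than the unstimulated library of the same number in 3 of 3 numbers, as was Grm5 (22.0% of genes were). Grm2 and Grm3 were lower in 3 of 3 numbers (17.6% of genes), at ratios of 0.938 to 0.973 and 0.919 to 0.982. The groups of Grm7 overlapped, and its log2 difference was 0.13 (interval -0.27 to 0.52).

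Set directly against each other, BDNF and bicuculline gave 0 of 6 called members with limma (0.128% of genes), 0 at an unadjusted p under 0.05 and 0 with the block. Grm7 and Grm5 had the largest differences, 0.26 and 0.25 log2 units higher with BDNF, with intervals of -0.13 to 0.66 and -0.04 to 0.55. Grm5 did not overlap between the 2 stimuli (3.38% of genes were so arranged), and its lowest BDNF library was 50.2 FPKM against a highest bicuculline library of 49.1 FPKM. This comparison shares its libraries with the comparisons against unstimulated cells.

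In whole cells under triptolide bicuculline also called 0 of 6 members with limma (0.0352% of 14205 genes), with 0 at an unadjusted p under 0.05 and 0 with the block. Grm7 was at 24.7, 27.6 and 28.8 FPKM unstimulated and 28.6, 30.4 and 28.4 FPKM with bicuculline. Its groups overlapped, and the log2 difference was 0.11 with an interval of -0.08 to 0.29. Grm2 had the largest difference, 0.16 (interval -0.07 to 0.38), from 4.70 ± 0.49 to 5.29 ± 0.56 FPKM. The bicuculline response under DRB minus that in these whole cells was called for 0 of 6 members (0.138% of 13814 genes; 0 at an unadjusted p under 0.05), and ran from -0.24 for Grm7 to -0.02 for Grm8. Levels also differed between the experiments: unstimulated Grm7 was at 19.6 to 23.5 FPKM under DRB and 24.7 to 28.8 FPKM under triptolide, where inhibitor, time and preparation cannot be told apart.

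Cytosolic RNA gave 0 of 6 called members with limma (3.27% of genes were called, 452 higher and 13 lower), with 0 at an unadjusted p under 0.05 and 0 with the block. Grm7 was at 27.8, 31.9 and 29.97 FPKM in unstimulated cytosol and 29.4, 28.2 and 26.4 FPKM with bicuculline. Number 1 was higher and numbers 2 and 3 were lower, with a log2 difference of -0.09 (interval -0.28 to 0.09). The member median was -0.05 while that of all genes was 0.08, a shift that was -0.01 with median-ratio scaling, under which 19 genes were higher and 12 lower. Grm5 (58.9 ± 4.29 and 57.2 ± 4.04 FPKM) and Grm2 (5.54 ± 0.49 and 5.40 ± 0.54 FPKM) were slightly lower with bicuculline in 3 of 3 numbers, with groups that overlapped. With Grm4, 3 of 6 members were lower in each number, against 7.62% of genes.

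**Figure D2:**
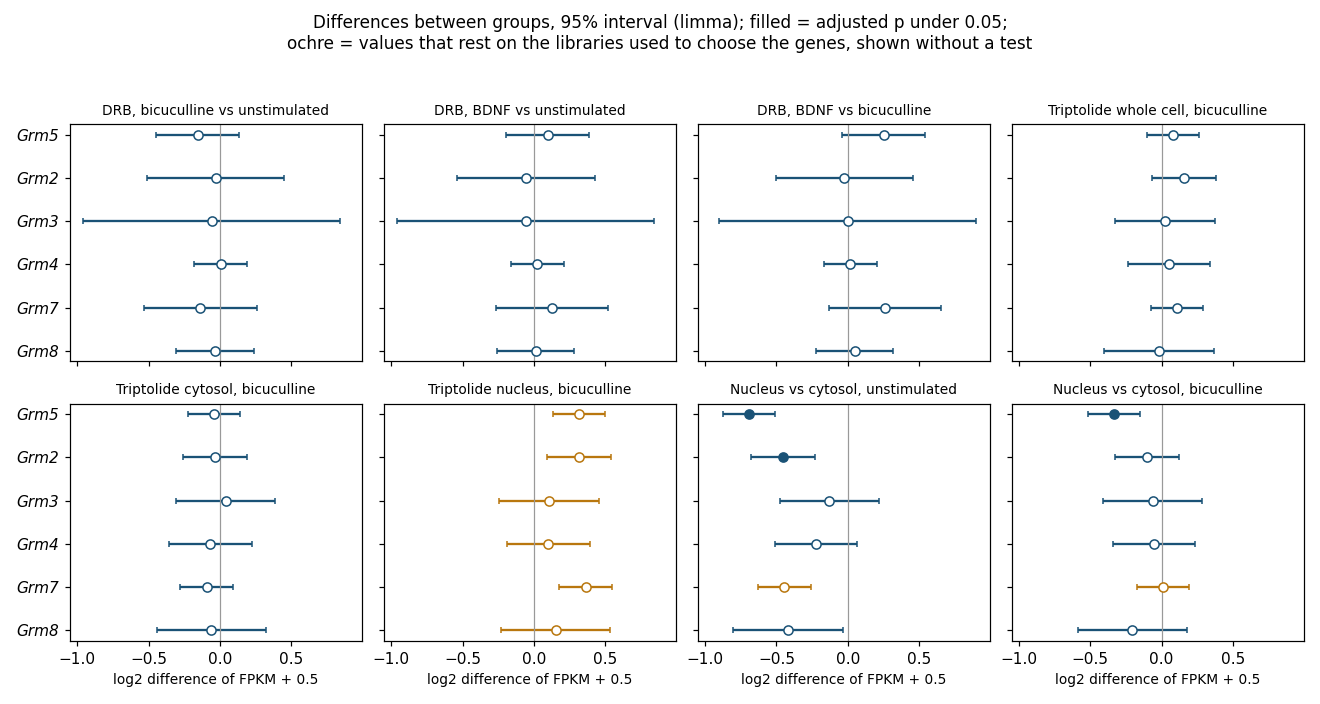
Log2 difference of FPKM + 0.5 for each receptor in 8 comparisons, with 95% intervals from limma. Filled points passed an adjusted p of 0.05. Ochre points, for the nuclear bicuculline contrast and for Grm7 in nucleus against cytosol, carry no test. Filled points are Grm5 and Grm2 in nucleus against cytosol without stimulus and Grm5 with bicuculline, all below 0.

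Nuclei gave the contrast that selected Grm7 and that the choice of the set had in view. There all 6 had a higher mean with bicuculline, where the median difference over all genes was -0.02. Grm7 was at 18.7, 23.9 and 23.2 FPKM in unstimulated nuclei and at 29.2, 29.2 and 26.2 FPKM with bicuculline. All 3 bicuculline libraries lay above the unstimulated ones, and the ratios by number were 1.56, 1.22 and 1.13. The mean went from 21.9 ± 2.83 to 28.2 ± 1.70 FPKM, a log2 difference of 0.36 ± 0.09 (SE).

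Grm5 in nuclei was at 32.9, 41.0 and 35.0 FPKM unstimulated and 42.0, 47.1 and 47.0 FPKM with bicuculline. Grm2 was at 4.10, 3.73 and 3.87 FPKM unstimulated and 5.11, 4.30 and 5.62 FPKM with bicuculline. Both had groups that did not overlap, each with a log2 difference of 0.32. With Grm7, that makes 3 of 6 members (9.48% of genes did not overlap in this direction, and 1.81% were called by limma in either), a count that the choice of genes bears on. Grm8, Grm3 and Grm4 had smaller differences of 0.15, 0.11 and 0.10, with overlapping groups, so these mark the members outside the group of higher ones. Without Grm3's library of number 3 with bicuculline, its difference was -0.13. The member median was 0.24 and that of all genes -0.02.

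Markers of neurons and astrocytes moved in the same nuclear libraries. The median log2 difference was 0.26 over 6 excitatory and 0.26 over 5 inhibitory markers, and -0.17 over 6 astrocyte markers, with 0 of 17 called by limma (8 at an unadjusted p under 0.05). With the block 4 excitatory and 3 inhibitory markers were higher, and 1 inhibitory and 1 astrocyte marker lower. Over all genes the block called 1862 of 14205, in either direction. Summed levels in unstimulated and bicuculline nuclei were 700 to 805 and 683 to 890 FPKM for excitatory markers, and 186 to 202 and 186 to 234 FPKM for inhibitory ones. For astrocyte markers they were 591 to 682 and 526 to 599 FPKM. The part of these shifts in the nuclear levels of the receptors was not tested. Median nuclear differences were larger in longer genes over matched genes, from -0.03 below 20 kb to 0.06 in 193 genes of 500 kb or more, where Grm5, Grm7 and Grm8 belong.

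Without stimulus the receptor mRNAs were lower in nuclei than in cytosol, with the largest difference in Grm5 (with quantile normalization Grm8, at -0.99, and Grm2, at -0.79, differed more). Grm5 was at 32.9, 41.0 and 35.0 FPKM in nuclei and 54.2, 62.4 and 60.2 FPKM in cytosol, which gave ratios of 0.608, 0.656 and 0.582. The fractions did not overlap, and the log2 difference was -0.69 ± 0.09 (limma, adjusted p = 2.46e-06). Among 14205 genes this difference was at percentile 2.18.

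Grm2 also passed the test, with 3.73 to 4.10 FPKM in nuclei and 4.999 to 5.96 FPKM in cytosol, a log2 difference of -0.46 ± 0.11 (limma, adjusted p = 0.0012). Grm7 had a difference of -0.45 ± 0.09 and ratios of 0.671, 0.7499 and 0.773. Its unstimulated nuclear libraries are those whose low level chose it, so its value is a description. Tests of the other members against cytosol use the same nuclear libraries. The choice of the set had these in view, so those calls are not independent of it. Of the other 5 members, 2 were thus called, both lower (67.0% of genes were called, 39.0% higher and 28.0% lower in nuclei). With quantile normalization the split over all genes turned from 5540 higher and 3971 lower to 3943 and 5837, and with median-ratio scaling it was 5075 and 4922. Each of the 5 members was below 0 under each of these scalings.

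Grm8 and Grm4 passed only when replicate numbers were paired or under another setting, and Grm3 passed in none of the 13 alternatives run. Grm8 was at 1.75, 1.18 and 1.37 FPKM in nuclei and 2.56, 1.84 and 1.85 FPKM in cytosol, a log2 difference of -0.42 ± 0.18 (limma, adjusted p = 0.0516, or 1.69e-04 with the block). Grm4 had 7.68 ± 1.22 and 9.02 ± 1.11 FPKM and a difference of -0.22 ± 0.14 (limma, adjusted p = 0.161, or 0.00438 with the block). Grm3 differed by -0.13, with an interval of -0.48 to 0.22, and its highest nuclear library (12.05 FPKM) was just below its lowest cytosolic one (12.1 FPKM). In each of the 3 numbers the 5 receptors other than Grm7 were lower in nuclei, an arrangement that 37.7% of genes had. For 4 of these 5, all but Grm4, every nuclear library was below every cytosolic one (29.2% of genes). Cell type markers also differed between these fractions. The 5 inhibitory markers were all lower in nuclei (median -1.44, limma, summed level 186 to 202 against 490.0 to 580 FPKM), as were 4 of 6 excitatory ones (median -0.42, with 1 higher and a summed level of 700 to 805 against 521 to 564 FPKM). Of astrocyte markers 3 of 6 were higher (5 with the block, median 0.34) and of progenitor markers 3 of 4 (median 1.22). The part of these differences in those of the receptors was not tested.

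With bicuculline the nuclear and cytosolic levels were closer. Grm5 was still lower in nuclei, at 42.0 to 47.1 FPKM against 52.8 to 60.8 FPKM, with a log2 difference of -0.33 ± 0.09 (limma, adjusted p = 0.00316). It was the 1 member called (63.2% of genes were called), and with quantile normalization it was not (-0.15, adjusted p = 0.133, limma). Grm8 passed with the block (adjusted p = 0.0294, limma), at a difference of -0.20. Grm7 had ratios of 0.992, 1.04 and 0.994 and a difference of 0.01, where it had been 0.671 to 0.773 without stimulus.

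The shift of the ratio with bicuculline is the nuclear response minus the cytosolic one. It contains the nuclear contrast that the choice of the set had in view and is given without a test. The shift was 0.46 log2 units for Grm7, 0.36 for Grm5, 0.35 for Grm2, 0.21 for Grm8, 0.17 for Grm4 and 0.07 for Grm3, against a median of -0.11 over all genes. Grm2, Grm4 and Grm5 were higher in nuclei and lower in cytosol in each of the 3 numbers. The share of all genes with this arrangement was not counted. For Grm7 the cytosolic level of number 1 was higher with bicuculline.

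**Figure D3:**
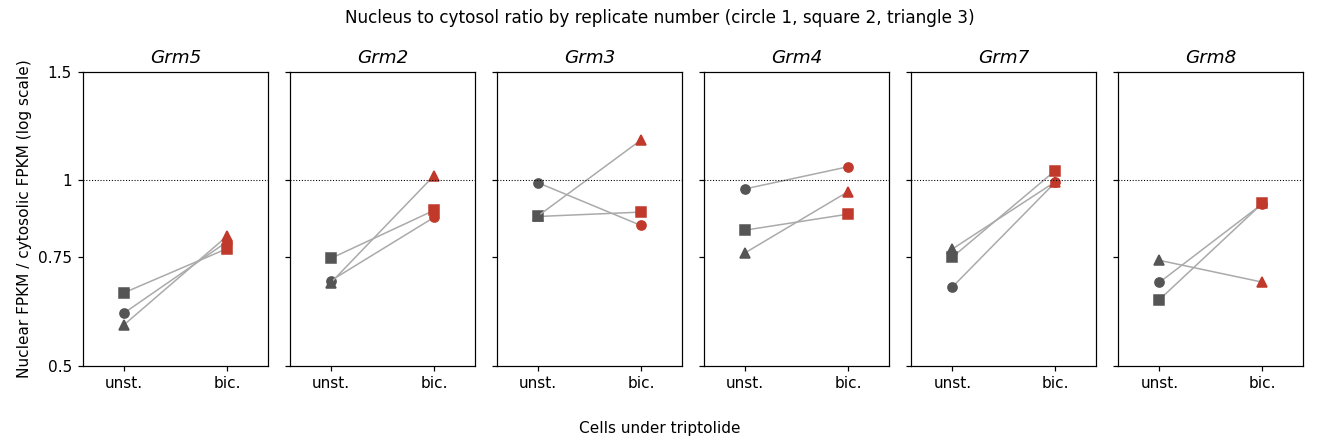
Nuclear FPKM divided by cytosolic FPKM (log scale; dotted line at 1) for each receptor without stimulus and with bicuculline under triptolide, with a line for each replicate number. Grm7 moves from 0.671 to 0.773 up to 0.992 to 1.04, Grm5 stays below 1, and the lines of Grm3 and Grm8 go in different directions.

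The table also holds gene models without a symbol inside the receptor genes, and 2 that overlap no exon of Grm7 reached at least 0.5 FPKM in a library, a limit chosen after the values were seen, so no test is given. Entry GSMG0032315 lies at chr6:111556319-111559502 and entry GSMG0032316 at chr6:111560666-111563014. Both fall within intron 9 of 9 of the coding GENCODE transcript of Grm7 with the most exonic sequence, an intron of 70.1 kb, and overlap no GENCODE exon of Grm7. They end 6.51 and 3.003 kb before the last exon.

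These intronic models were nuclear, unlike the Grm7 entry. GSMG0032315 was at 1.33, 1.499 and 1.37 FPKM in unstimulated nuclei and 0.123, 0.0842 and 0.0829 FPKM in cytosol. GSMG0032316 was at 1.90, 1.60 and 1.47 FPKM in nuclei and 0.136, 0.143 and 0.168 FPKM in cytosol. Neither overlapped between fractions, with nuclei the higher, while Grm7 itself was lower in nuclei.

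Under triptolide their mean levels in nuclei and whole cells were lower with bicuculline. In nuclei the means were 1.401 ± 0.09 and 1.20 ± 0.22 FPKM for GSMG0032315 without and with bicuculline, and 1.66 ± 0.22 and 1.39 ± 0.28 FPKM for GSMG0032316, with overlapping groups. As a percentage of the Grm7 level in the same library, GSMG0032315 was at 5.92 to 7.13% without and 3.45 to 4.96% with bicuculline, and GSMG0032316 at 6.34 to 10.2% and 4.36 to 5.79%. These percentages did not overlap between the groups. Their divisor is the nuclear Grm7 level that chose the gene, and its higher value with bicuculline lowers them. They are therefore a description and no separate result about the models. In whole cells, which the choice of Grm7 did not use, GSMG0032316 was at 0.907, 0.877 and 0.772 FPKM without and 0.576, 0.537 and 0.486 FPKM with bicuculline. These groups did not overlap. GSMG0032315 was at 0.666 to 0.861 and 0.520 to 0.675 FPKM there, with overlap. Both models were picked after their values were seen, and the share of all entries without overlap in this direction was not counted. Under DRB the means without and with bicuculline were 0.312 and 0.228 FPKM for GSMG0032315 and 0.274 and 0.230 FPKM for GSMG0032316, with overlapping groups, and that of Grm7 was also lower with bicuculline. In cytosol GSMG0032315 was higher with bicuculline (0.135 to 0.226 against 0.0829 to 0.123 FPKM).

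**Figure D4:**
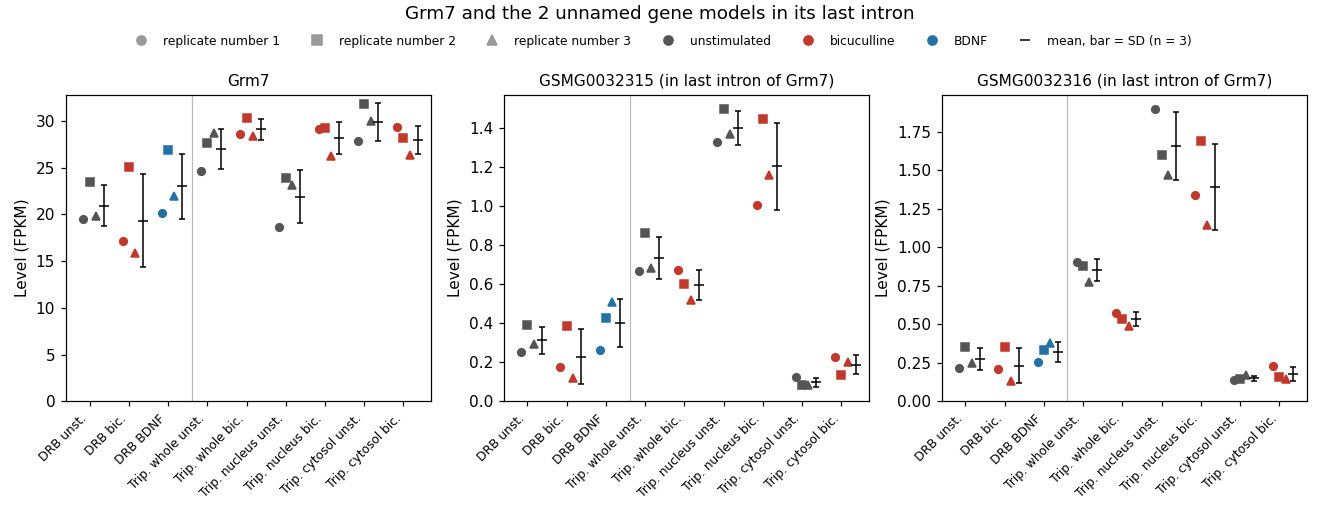
Level (FPKM, linear axes from 0) of Grm7 and of the 2 gene models in its last intron in the 27 libraries, by group, with mean and SD of 3 libraries. Grm7 is lower in unstimulated nuclei than in cytosol, while both intronic models are above 1 FPKM in nuclei and at or below 0.228 FPKM in cytosol.

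In the other receptor genes 1 such model passed the same limit. GSMG0034752 (Gm44846 in GENCODE), in the last intron of Grm5 at chr7:88119157-88122400, reached its highest level, 0.916 FPKM, in the DRB library with bicuculline of number 2, where the other libraries of that group had 0.306 and 0.205 FPKM. Under triptolide it had 0.367 ± 0.02 FPKM in unstimulated nuclei and 0.083 ± 0.03 FPKM in cytosol. With bicuculline it had 0.397 ± 0.08 FPKM in nuclei, so its mean was not lower there, unlike the means of the Grm7 models, whose groups overlapped. As a percentage of the Grm5 level in the same nuclear library it was at 0.888 to 1.11% without and 0.765 to 1.02% with bicuculline, with overlap. The antisense gene Gm20387 overlaps an exon of Grm7 and has its own entry at 0.393 to 0.800 FPKM, and Gm28111 overlaps an exon of Grm2 on the opposite strand. The library kit keeps strand, but the strand setting of the counting is not given in the sources used here, so reads of these pairs may not be separated.

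Around the receptors, genes of their signalling pathways also gave few calls for bicuculline. The lists were 25 genes of Gq signalling or downstream of group I receptors (the Gq list), 32 of Gi/o signalling, and 20 scaffolds and regulators. A further 10 were of glutamate release, uptake and turnover. All but 1 gene of the Gq list were tested. Under DRB and in triptolide whole cells, 0 of these were called by limma for either stimulus (at most 4 of a list at an unadjusted p under 0.05). With the block, 1 Gi/o gene and 2 scaffolds rose with bicuculline under DRB (76 of 13321 genes called). In the same way 1 scaffold was lower with BDNF than with bicuculline (72 of 13321 genes called). In whole cells 1 Gq and 4 Gi/o genes rose with the block (601 of 14205 genes called). In cytosol Homer1, the scaffold that binds group I receptors, rose by 0.28 ± 0.06 (limma, adjusted p = 0.0239), 1 of 20 scaffolds (3.27% over all genes). Dgki, a diacylglycerol kinase that ends signalling downstream of phospholipase C, rose by 0.41 ± 0.11 (limma, adjusted p = 0.0471), 1 of 24 Gq genes tested, from 6.87 ± 0.66 to 9.29 ± 0.52 FPKM. The Homer1 and Dgki calls were lost with median-ratio scaling (0.17 and 0.31; limma, adjusted p = 0.155 and 0.181), and leaving out single libraries kept 2 of 6 Homer1 calls and 0 of 6 Dgki calls. In nuclei Gnai2, a Gi alpha subunit, fell by 0.31 on the log2 scale (limma, adjusted p = 0.0276), 1 of 32 Gi/o genes (1.81% over all genes), while Gnaq and Gnao1 differed by 0.12 and 0.11 and were not called. The Gnai2 call held in 1 of 6 fits without a library (limma, adjusted p of 0.0443 to 0.0898). With the block, 3 Gq genes, 6 Gi/o genes, 2 scaffolds and 2 turnover genes rose in nuclei. There 1 each of the Gq, Gi/o and turnover lists fell. In cytosol 6 Gq genes, 3 Gi/o genes and 4 scaffolds rose with the block. Over all genes the block called 1862 of 14205 in nuclei and 2175 in cytosol, in either direction.

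Between unstimulated nucleus and cytosol the Gi/o list leaned the same way as the receptors, with 19 of 32 genes lower and 3 higher in nuclei (23 and 3 with the block) and a median of -0.31 against 0.06 over all genes. Kcnj3, a potassium channel subunit opened by G beta-gamma, was lower by -0.63 ± 0.11 (limma, adjusted p = 1.19e-04), and Gnai1 by -0.62 ± 0.09. Gnb5 had -0.61 and Gnao1 -0.25, both called (Gnao1 not with quantile normalization, limma, adjusted p = 0.676), while Gng7 was higher in nuclei by 0.66. The Gq list had 8 higher and 8 lower of 24 (39.0% and 28.0% over all genes), and 9 higher and 12 lower with the block. It was led by Itpr2, an IP3 receptor of calcium stores (1.90), and by Cnr1 (-0.99), with Plcb3 (0.86) and Dgki (0.85). Cnr1, the cannabinoid receptor, was listed as downstream of group I receptors, and its value does not describe Gq coupling itself. Of 20 scaffolds 8 were higher, Shank3 (0.98) and Shank1 (0.86) among them, and 5 were lower, shares near those over all genes (10 and 6 with the block), with Rgs2 at -0.90 and Elfn1, which binds group III receptors across the synapse, at -0.76. Homer1 was not called (-0.11). The 10 turnover genes had 2 higher, Folh1 (0.84) among them, and 3 lower, including Slc17a6 (-0.80) and Slc1a1 (-0.69), and with the block 5 were higher and 4 lower.

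Genes with the most similar profiles differed between the receptors. Pearson's r of log2 levels over the 27 libraries was taken against 11146 named genes, and the libraries share replicate numbers, fractions and inhibitors, so these values are descriptions. Grm5 was most like Atp2b1 (r = 0.960), Celsr2 (0.957) and Epha5 (0.950). Grm7 was most like Ttc19 (0.915), Atp2c1 (0.892) and Tmem131 (0.885). Among group II receptors, Grm3 was most like Htr5a (0.945), Acsl5 (0.931) and Layn (0.887), and Grm2 like Ero1lb (0.943), Acan (0.924) and Enpp2 (0.923).

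Grm4 and Grm8, both of group III, shared a neighbour. Grm8 was most like Pcdh20 (0.857), Synpr (0.845) and Tac2 (0.842), and Grm4 like Nog (0.838), Synpr (0.801) and Vip (0.769). Over the 9 DRB libraries alone these values were lower, at 0.354, 0.607 and 0.370 for Grm8 and 0.0516, 0.497 and 0.343 for Grm4. Synpr codes for a synaptic vesicle protein, and Tac2 and Vip for neuropeptides. Between members, r was highest for Grm2 with Grm7 (0.820) and Grm2 with Grm3 (0.775), the latter 0.978 over the 9 DRB libraries, where number 2 was high for both, and 0.372 over the 18 triptolide libraries. Grm4 and Grm8 had r = 0.726, and Grm4 with Grm7, of the same group, 0.0316.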

How the data were processed

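The authors deposited 1 FPKM value per gene model and library, on FASTDB models and mm10 per the file headers. FastQC, Picard, SAMtools and STAR 2.4.0 are named per the submitters' processing notes, and the counting program is not given in the sources used here. FPKM depends on the total of each library, so scaling was varied. Values were tested as log2(FPKM + 0.5) for genes that reached 1 FPKM in 3 or more libraries of their experiment, with limma 3.58.1 in R 4.3.3 (1 mean per group, trend and robust moderation, Benjamini-Hochberg adjustment, threshold 0.05). Fits per experiment used all its groups. Scripts were tested on simulated data.

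Replicate numbers match codes in the descriptions, whose meaning is not given. Deviations of libraries with the same number correlated at 0.463 to 0.902 under DRB and 0.256 to 0.692 under triptolide. With different numbers r was -0.620 to 0.154 and -0.446 to -0.0709. The numbers were therefore taken to pair the libraries, and a blocked fit is printed where it changes a call. Alternatives were other pseudocounts, filters and scalings, the block, and leaving out each library. GENCODE M21 gave exons and overlaps, and RefSeq the promoters. The members and lists were chosen with earlier results of these data known. Named genes were the 6 members, Grm6, up to 4 called genes per list and comparison with Homer1, Elfn1, Gnaq and Gnao1, and the 3 most similar genes of each member. The gene models in introns were chosen after their values were seen. Some genes that this rule names are not reported here.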

Additional observations from a re-analysis of the deposited data

Results flagged for a closer look

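In 3 of 6 receptors the level with bicuculline was higher in nuclei and slightly lower in cytosol in every replicate number. In cytosol their groups overlapped and 0 of 6 members were called by limma. The cytosolic ratios were 0.963 to 0.985 for Grm2, 0.892 to 0.985 for Grm4 and 0.962 to 0.976 for Grm5. Of all genes 7.62% were lower in cytosol in each number, and the share with both directions was not counted. The nuclear minus the cytosolic log2 difference was 0.35 for Grm2, 0.17 for Grm4 and 0.36 for Grm5. This difference was not tested, because it contains the nuclear contrast that the choice of the set had in view.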

How the results depend on the processing

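In 8 comparisons tested, the number of members called was 0 of 6 under every setting run for DRB bicuculline, DRB BDNF, BDNF against bicuculline, triptolide whole cells, triptolide cytosol, and DRB minus triptolide, each left-out library included. For nucleus against cytosol without stimulus, 2 of the 5 members other than Grm7 became 4 with the replicate block and 4 with quantile normalization, 3 with a pseudocount of 0.1 and 3 with median-ratio scaling, and 2 to 3 when a library was left out. With bicuculline 1 member became 2 with the replicate block; with quantile normalization the 1 member was Grm8 at -0.59 (limma, adjusted p = 0.0113) in place of Grm5. Of 852 refitted values of single genes 842 kept their call or, where untested, moved by less than the replicate SD, 9 gained a call, 1 lost it, and 0 called values changed sign. Of the pathway genes, Gnao1 in nucleus against cytosol with bicuculline turned from -0.18 to 0.013 with quantile normalization. In nuclei with bicuculline, which carry no test, leaving out a library gave 0.25 to 0.43 for Grm7, 0.25 to 0.41 for Grm5 and 0.24 to 0.41 for Grm2, while Grm3 (-0.13 to 0.28), Grm4 (-0.01 to 0.23) and Grm8 (-0.03 to 0.28) crossed 0. Counts over all genes moved by over 1.5 times with the replicate block, to 76 from 41 (DRB bicuculline), 199 from 85 (BDNF), 72 from 17 (BDNF against bicuculline), 601 from 5 (whole cell), 2175 from 465 (cytosol), 1862 from 257 (nucleus), 1387 from 79 (nucleus minus cytosol) and 38 from 19 (DRB minus triptolide). The cytosolic count was 31 with median-ratio scaling, 2 with quantile normalization, 229 with a filter at 0.1 FPKM, 15 without a filter and 12 without the unstimulated library of number 3. The nuclear count was 682 with quantile normalization, 544 without a filter, and 21 without the unstimulated library of number 1; the causes were not tested. Grm8, at 1.18 to 2.56 FPKM, is the member where the pseudocount matters most. With 3 libraries a group and no block, the differences of Grm3 under DRB have the widest intervals of the members.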
